A study of Caenorhabditis elegans with 15 samples.

Results

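The comparison described here sets nematodes exposed to Elbe sediment against nematodes exposed to Danube sediment. Its members were chosen by the river named in the title of each sample, which gave 10 of the 15 2-colour microarrays of the series, 5 for Elbe and 5 for Danube. Both groups were wild-type Caenorhabditis elegans of the Bristol strain N2, synchronized to the fourth larval stage and young adults, fed with E. coli and kept for 48 h in vials with 0.5 g of wet sediment and 20000 worms each. The worms of 24 vials made up 1 replicate, so every array averages over a large population of whole animals. The study chose the Elbe site for high and the Danube site for low contamination. Grabs from a site were mixed before use, so the 5 replicates of a river are repeat exposures to 1 mixed sediment. The p-values below rest on the spread between arrays of a sediment, which holds differences between exposures and between hybridizations. In the limma fit this spread is pooled over all 15 arrays, those of Rhine included. On each array the cDNA of the sediment sample carried Cy5, and a reference pooled from RNA of all sediment-exposed worms and of a laboratory control carried Cy3. The dyes were not swapped, so a ratio above or below the reference also holds any difference between the dyes. In RNA from whole animals, fewer cells of a type and less RNA per cell cannot be told apart.

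A limit of the design applies to every value that follows. As the numbers on the slides show, the samples Danube 1 to 4 were hybridized on slides of 1 series, while Danube replicate 5 and all 5 Elbe arrays were hybridized on slides of another series. Within the slide series that Elbe and Danube share, the difference between the sediments is the mean of 5 Elbe arrays minus Danube replicate 5, and this value is called the within-series difference below. Apart from that single array, slide series and sediment cannot be told apart. The spread between the Danube arrays, and with it the p-values, also holds any difference between the slide series.

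C. elegans lives on bacteria in decaying plant matter and meets sediment particles through its gut and through its cuticle, an extracellular coat built largely of collagens that the epidermis secretes anew at each moult. Foreign compounds are handled by cytochromes P450, transferases and transporters, metals by metallothioneins and related proteins, damaged proteins by heat shock proteins, and pathogens by lectins, lysozymes and saposin-like proteins. Around the end of the fourth larval stage the hermaphrodite finishes making sperm and starts making oocytes, yolk and eggshell components. The function groups below follow this division.

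Of 19084 probes on the array, 5347 were tested, namely those that for each of the 3 sediments had a spot better than the lowest confidence grade in 3 or more of 5 arrays. They stood for 5299 genes. The ratios of single arrays given below include those from spots of the lowest grade. Probes used included 40 of 74 marker genes of tissues and stages, among them 9 of 10 for intestine, 7 of 8 for oocyte and embryo, 5 of 8 each for body wall muscle and germline, and 4 of 8 each for epidermis and neurons. Pharynx was represented by 3 of 8 markers, larval moult by 2 of 8 and sperm by 1 of 8, so moult and sperm rest on few of their defining genes. None of the 40 passed the thresholds given below. The median Cy5 signal of an array was 1433 to 1804 (mean 1672) for Elbe and 1322 to 1622 (mean 1448) for Danube (n = 5 each, exact two-sided permutation p = 0.0397, adjusted over 3 measures p = 0.119). The share of gene spots with the lowest grade was 53.1% ± 1.68 for Elbe and 56.5% ± 3.62 for Danube (SD, n = 5 each, exact permutation p = 0.0794, adjusted p = 0.119), and the median Cy3 signal was 947 ± 109 for Elbe and 880 ± 167 for Danube (exact permutation p = 0.444). Elbe arrays thus had the higher mean in Cy5, but the groups overlapped and the difference did not pass the adjustment. Danube replicate 5, in the slide series of the Elbe arrays, had the highest median Cy5 signal of its group, 1622. The part of signal strength in the results was not tested.

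A single gene, F41F3.3, rose in Elbe worms after adjustment over all probes. It has no symbol in the RefSeq table. Its spots were better than the lowest grade on 5 of 5 Elbe and 3 of 5 Danube arrays. The ratios of the other Danube arrays come from spots of the lowest grade. Its log2 ratio to the reference was 2.30, 1.14, 2.18, 1.70 and 1.45 in Elbe replicates 1 to 5, against -1.91, -1.59, -1.43, 0.48 and -2.30 in Danube replicates 1 to 5. All Elbe arrays lay above all Danube arrays, and Danube replicate 4 lay nearest to them. The difference was 3.11 on the log2 scale (SE 0.48, limma, adjusted p = 0.0406), an 8.61-fold difference, and the within-series difference was 4.06. The exact two-sided permutation p was 0.00794, the smallest that 5 against 5 arrays allow. As the gene was picked for its low p on these same arrays, the non-overlap and the exact p are not further evidence. In the Cy5 signal alone the difference from Danube was 2.00. The 5 Rhine arrays lay in the same slide series as the Elbe arrays. Against Rhine worms the difference was 2.99 (SE 0.48, limma, adjusted p = 0.0626). Both comparisons use the same 5 Elbe arrays. This 1 probe is 0.0187% of those tested, and no probe passed the adjustment when any array other than Danube replicate 4 was left out.

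In the same fit, 338 of the 5347 probes tested had an unadjusted p below 0.05, and chance gives such a p in about 1 of 20 probes. The thresholds of the study's methods, a fold from 1.4 upward or from 0.7 downward at an unadjusted p below 0.05, were passed by 336 probes. Of these, 232 were higher in Elbe worms (4.34% of the probes tested) and 104 were lower (1.95%). Without Danube replicate 2, 153 probes were higher and 141 lower. With the slide series as a block, 42 probes passed on the higher and 53 on the lower side, of which 16 and 7 were among the 232 and the 104. At least 2-fold differences made up 103 of the higher and 39 of the lower probes. The 5 Elbe arrays all lay above the 5 Danube arrays for 70 probes (1.31%) and all lay below them for 30 probes (0.561%). Of all probes tested, 57.1% had a higher mean in Elbe, and the median log2 difference was 0.075 over all arrays and -0.0092 within the series. Values of function groups below are read against this median and against the shares of 4.34% and 1.95%.

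Among the leading 12 higher genes, the log2 differences ran from 1.07 to 3.37, and apart from F41F3.3 their adjusted p-values ran from 0.0826 to 0.477. Since these genes were picked for their low p, non-overlap is not further evidence here. For 7 of the 12, spots were better than the lowest grade on all 10 arrays. The gene next in order was F25E5.8, without a symbol as well. Its log2 ratios were 0.15, 0.92, 0.43, 0.93 and 0.23 in Elbe replicates 1 to 5, against -0.62, -1.4, -0.90, -1.08 and -0.51 in Danube replicates 1 to 5. No Elbe array reached down to the highest Danube array, which was replicate 5. The difference was 1.44 (SE 0.25), and within the series it was 1.04.

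For F21C10.10, the ratios were 0.36, 1.32, 1.01, 1.84 and 1.05 in Elbe and -0.55, -0.19, -0.71, 0.05 and -1.12 in Danube. Elbe replicate 1 lay lowest of its group and Danube replicate 5 lay lowest of all, so the within-series difference of 2.24 exceeded the difference over all arrays, 1.62 (SE 0.33). kpc-1 encodes a proprotein convertase that cuts precursor proteins and is known for shaping dendrites of sensory neurons. Its ratios were 0.89, 0.11, 0.83, 0.26 and 0.81 in Elbe and -0.43, -0.69, -1.13, -0.81 and -0.27 in Danube, a difference of 1.25 (SE 0.25) and 0.85 within the series. The Elbe arrays were all above and the Danube arrays all below the reference. A second kpc-1 probe did not pass the spot filter and differed by 1.06 in the fit over all probes.

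math-26, a member of the large family of proteins with a MATH domain, was even among Elbe worms. Its ratios were 0.60, 0.45, 0.50, 0.39 and 0.45 in Elbe, against -0.89, -2.12, -0.51, -1.13 and -0.25 in Danube, where replicate 2 was lowest and replicate 5 highest. The difference was 1.46 (SE 0.31) over all arrays and 0.73 within the series. clpr-1 had the highest difference of all genes past the thresholds. Its ratios were 5.80, 4.10, 5.23, 4.78 and 7.13 in Elbe and 1.45, 2.10, 3.77, 1.26 and 1.61 in Danube. The Cy5 signal thus exceeded the Cy3 signal of the reference on every array of both rivers, and more so in Elbe. The mean ratio in Rhine was 4.32, although the reference pool held RNA of the same worms. The part of the dyes in these ratios was not tested. The difference was 3.37 (SE 0.73), the within-series difference 3.79 and that from Rhine 1.09.

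piit-1 had narrow groups on both sides, with ratios of 0.33, 0.0048, 0.48, 0.37 and 0.10 in Elbe and -0.79, -0.81, -0.71, -0.65 and -1.08 in Danube. Its difference was 1.07 (SE 0.25) and 1.34 within the series. The remaining leading genes, with the within-series difference second, were Y57G11C.14 (1.84 and 1.17), D2021.8 (1.24 and 1.30), R05G6.1 (1.49 and 0.70), clik-3 (1.57 and 0.48), which encodes a calponin-like protein, and prp-18 (1.75 and 0.88), which encodes a splicing factor. Of these, clik-3 alone overlapped between the groups, because Danube replicate 5 lay at 0.0071 and Elbe replicate 3 at -0.0097. In 11 of the 12 leading genes Danube replicate 5 lay below every Elbe array, and all 12 had a positive within-series difference, but this array is 1 of the 5 Danube arrays by which the genes were chosen. With the slide series as a block, 6 of the 12 passed the thresholds. In the plot of leading genes, the open squares of Danube replicate 5 show where this array falls.

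**Figure D1:**
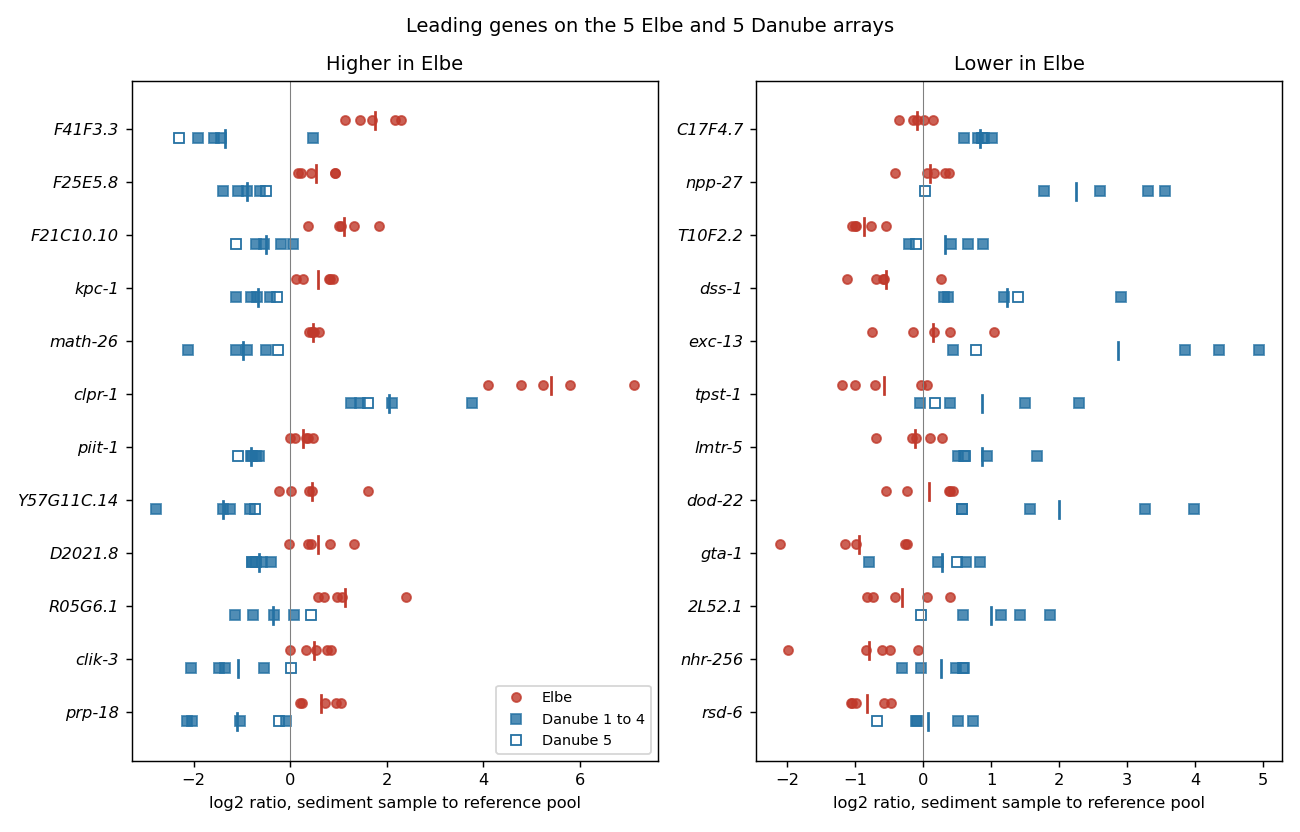
Log2 ratio of the sediment sample to the reference pool (x axis) for the 12 leading genes higher and the 12 leading genes lower in Elbe. Circles are the 5 Elbe arrays, filled squares Danube replicates 1 to 4, open squares Danube replicate 5, and vertical ticks group means; for npp-27 Danube replicate 5 lies at 0.038, among the Elbe arrays.

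The leading 12 lower genes had log2 differences of -0.90 to -2.72 and adjusted p-values of 0.311 to 0.627. Of the 12, 5 did not overlap between the groups, and 6 had spots better than the lowest grade on all 10 arrays. C17F4.7 led them and was even in both groups. Its ratios were -0.15, -0.36, -0.08, 0.15 and 0.023 in Elbe replicates 1 to 5, against 1.02, 0.80, 0.89, 0.60 and 0.86 in Danube replicates 1 to 5. Every Elbe array was below every Danube array, and the difference of -0.92 (SE 0.21) was matched by -0.95 within the series. The difference between Elbe and Rhine was -0.0085. dss-1 encodes a small subunit of the proteasome lid. Its ratios were 0.26, -0.59, -1.12, -0.58 and -0.69 in Elbe and 0.31, 2.92, 0.37, 1.19 and 1.4 in Danube, with a difference of -1.78 (SE 0.49) and -1.94 within the series. The groups came within a narrow gap of each other, between Elbe replicate 1 and Danube replicate 1.

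In several lower genes only part of the Danube arrays stood apart from Elbe. npp-27, which encodes a protein of the nuclear pore complex, had ratios of -0.41, 0.33, 0.16, 0.38 and 0.056 in Elbe, against 3.55, 3.30, 2.61, 1.77 and 0.038 in Danube. Danube replicates 1 to 4 were far above the reference and replicate 5 was level with Elbe, so the difference of -2.15 (SE 0.59) came to 0.065 within the series. For exc-13, one of the genes named after a defect of the excretory canal, the ratios were -0.74, 1.04, 0.16, -0.14 and 0.40 in Elbe and 0.44, 4.93, 3.85, 4.35 and 0.78 in Danube. Here Danube replicates 2 to 4 stood high and replicates 1 and 5 lay within the range of the Elbe arrays. The difference was -2.72 (SE 0.80) over all arrays and -0.64 within the series. dod-22, a gene downstream of the transcription factor DAF-16 that is also known from responses to bacteria, had ratios of -0.54, 0.38, 0.44, -0.24 and 0.40 in Elbe and 0.57, 3.99, 3.27, 1.58 and 0.57 in Danube. Its Danube replicates 1 and 5 lay just above the highest Elbe array, and the difference was -1.91 (SE 0.58), against -0.49 within the series.

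lmtr-5, a component of the Ragulator complex on lysosomes, had ratios of -0.69, -0.15, 0.28, -0.095 and 0.10 in Elbe and 0.52, 0.60, 1.68, 0.94 and 0.62 in Danube (difference -0.98, SE 0.30, within the series -0.73). gta-1, which encodes the transaminase that breaks down the transmitter GABA, had ratios of -1.14, -0.26, -0.98, -0.23 and -2.10 in Elbe and -0.79, 0.22, 0.84, 0.63 and 0.50 in Danube. Its groups overlapped through Danube replicate 1, and its within-series difference of -1.44 was further from 0 than the -1.22 over all arrays (SE 0.38). The others, with the within-series difference second, were T10F2.2 (-1.19 and -0.76), tpst-1 (-1.43 and -0.75), whose product adds sulfate to tyrosines, 2L52.1 (-1.30 and -0.27), the nuclear hormone receptor nhr-256 (-1.07 and -1.39) and rsd-6 (-0.90 and -0.15), needed for the spread of RNA interference. Danube replicate 5 lay above every Elbe array in 8 of the 12 lower genes, 11 of the 12 had a negative within-series difference, with the same limit on how they were chosen, and 4 of the 12 passed the thresholds with the slide series as a block.

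Of the 62 named genes that passed the thresholds, 30 had a within-series difference that was over 1.5 times smaller or of the other sign, and 12 passed with the slide series as a block. Of 37 function groups, 31 had a positive median over all arrays, which was 0 or lower within the series in 9, without Danube replicate 2 in 7 and in the Cy5 signal alone in 3. The median of all probes was itself 0.075, and 20 of the 37 groups had a median above it.

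Cuticle collagens had more members past the thresholds on 1 side than any other of the 37 function groups. Of 160 collagen genes on the array, 62 probes were used, of which 9 were higher in Elbe and 0 lower, against 4.34% and 1.95% of all probes. That is 14.5% of the collagens used, and 45 of the 62 had a positive difference. Their median difference was 0.31, against 0.075 for all probes, and 0.11 within the series, against -0.0092. On single arrays, the median log2 ratio of the collagens was 0.036, 0.016, 0.19, 0.23 and 0.10 in Elbe replicates 1 to 5 and -0.047, -0.46, 0.011, -0.14 and -0.053 in Danube replicates 1 to 5. The Elbe values all exceeded the Danube values, with Elbe replicate 2 just above Danube replicate 3, and Danube replicate 2 stood far below the rest. Without Danube replicate 2 the median difference of the collagens was 0.19, while that of all probes was 0.0019.

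Within the group, col-124 had ratios of 0.015, -0.00077, 0.44, 0.55 and 0.06 in Elbe and -0.27, -1.29, -0.68, -1.46 and -0.63 in Danube, which did not overlap. Its difference was 1.08 (SE 0.29, adjusted p = 0.522) and 0.84 within the series. sqt-2, a collagen whose mutants have a misshapen body, had ratios of 0.46, 0.35, 0.67, 1.65 and 0.69 in Elbe and 0.15, -0.94, 0.22, -0.23 and 0.092 in Danube, with a difference of 0.90 (SE 0.28) and 0.67 within the series. Its Elbe replicate 4 was high and Danube replicate 2 low, and the other arrays lay closer together. col-129 overlapped between the groups, with a difference of 1.07 that came to 0.13 within the series. The 9 collagens past the thresholds differed by 0.60 to 1.48, and Danube replicate 5 lay below every Elbe array for 6 of them.

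Genes of sperm had the highest median of all groups over all arrays, 0.36, closely followed by trehalose, glycogen and starch at 0.35. Within the series the sperm median was 0.15, below those of small-subunit ribosomal proteins (0.22) and yolk proteins (0.20), among others. In the Cy5 signal alone it was 0.30, against 0.43 for the collagens. Of 92 sperm genes on the array, 36 probes were used, 4 of them higher (11.1%) and 0 lower. The median ratio of the sperm genes was 0.09, 0.20, 0.14, 0.30 and 0.088 on the Elbe arrays and 0.066, -0.41, 0.022, -0.11 and 0.016 on the Danube arrays. Each Elbe array lay above each Danube array, with a gap smaller than the spread within either group. nspd-6 and nspd-5, of a family of small sperm peptides whose members are close copies that a probe may not tell apart, differed by 0.81 (SE 0.27) and 0.83 (SE 0.28), without overlap, and by 0.83 and 0.34 within the series. ssp-36 differed by 0.95 over all arrays and by -0.65 within the series, since Danube replicate 5 was the highest of the 10 arrays. Among the defining markers of sperm, 1 of 8 passed the spot filter, so the group is made up mostly of other sperm genes.

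**Figure D2:**
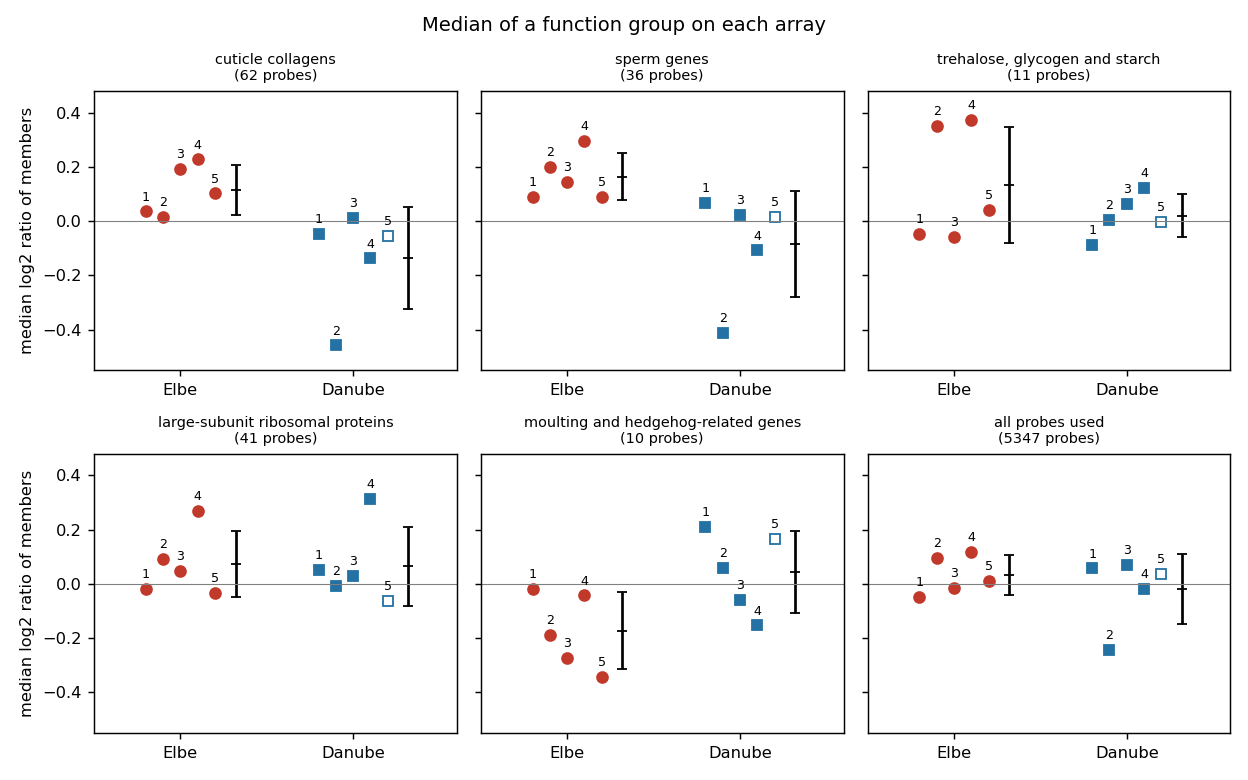
Median log2 ratio of the members of 5 function groups and of all probes used (y axis) on each Elbe and Danube array, with replicate numbers; the open square is Danube replicate 5, and bars are mean ± SD of 5 arrays. The Elbe arrays lie above the Danube arrays for cuticle collagens and sperm genes, the other groups overlap, and Danube replicate 2 is low in the collagens, the sperm genes and all probes.

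Genes of oocytes and the eggshell had a median of 0.18, which was 0.038 within the series and -0.013 without Danube replicate 2. Of their 27 probes, 2 were higher (7.41%). egg-3, needed for the egg's transition to an embryo, had ratios of 0.93, -0.54, 0.073, 0.59 and -0.36 in Elbe and -1.0, -0.61, -0.84, -1.32 and -0.88 in Danube (difference 1.07, SE 0.31, within the series 1.02). perm-2, a component of the eggshell's permeability barrier, had ratios of 0.52, 0.81, 0.61, 1.34 and 0.49 in Elbe and -0.075, -1.35, 0.066, -0.39 and -0.077 in Danube (difference 1.12, SE 0.34, within the series 0.83). Neither gene overlapped between the groups, and egg-3 had spots better than the lowest grade on 3 of 5 Danube arrays. The 5 yolk protein probes had a median of -0.016 with no member past the thresholds, and vit-2, the one with the lowest p, differed by 0.67 (SE 0.32, within the series 0.34). Germline helicases and P granule genes (14 probes, median 0.18) and genes of DNA replication and repair (29 probes, median 0.055) held no member past the thresholds either. wago-1, an Argonaute, differed by 0.99 (SE 0.60, within the series 0.19) and xpa-1, of nucleotide excision repair, by -1.78 (SE 1.01, within the series 0.038), and each had 1 Danube array far from the others. Of 31 histone probes, which cannot separate near-identical gene copies, his-61 was lower (-1.09, within the series -1.14) and the median was 0.0063.

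Structure and movement gave few differences beyond the collagens. Among 23 muscle probes only clik-3 passed the thresholds, and their median of 0.13 came to -0.08 within the series. clik-3 had ratios of 0.32, 0.76, -0.0097, 0.52 and 0.85 in Elbe and -0.54, -2.05, -1.48, -1.35 and 0.0071 in Danube, with Danube replicates 2 to 4 below all other arrays. Moulting and hedgehog-related genes had the lowest median of all groups, -0.19 over 10 probes and -0.36 within the series, and it was 0.088 with median centring and 0.087 in the Cy5 signal alone. Only nas-7, an astacin protease, passed the thresholds, with -1.21 (SE 0.56, within the series -0.79). The median ratio of this group was -0.018, -0.19, -0.27, -0.043 and -0.34 on the Elbe arrays and 0.21, 0.058, -0.059, -0.15 and 0.16 on the Danube arrays, which overlapped.

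Genes of protein synthesis seldom passed the thresholds. The 41 probes for proteins of the large ribosomal subunit had a median of 0.075 and the 26 of the small subunit one of 0.071, beside 0.075 for all probes. Within the series these medians were 0.19 and 0.22, beside -0.0092 for all probes. rpl-12 alone passed the thresholds, with ratios of -0.23, 0.73, 1.49, 1.67 and 0.73 in Elbe and 0.26, -2.72, -0.35, -1.43 and -0.91 in Danube. It differed by 1.91 (SE 0.63, within the series 1.79), Danube replicate 1 lay above Elbe replicate 1, and a second rpl-12 probe differed by 0.18. Among small-subunit proteins, rps-3 had the lowest p and differed by 0.46 (SE 0.34, within the series 0.70). Mitochondrial ribosomal proteins (mrps-10 higher by 0.86 and 0.18 within the series, 1 of 24 probes, median 0.11) and translation factors (0 of 21, median -0.015, eif-6 at -0.57 and -0.75 within the series) had medians near 0. The proteasome had a median of 0.19 over 23 probes, with dss-1 lower and rpn-11, the deubiquitinating subunit of the lid, higher by 0.74 (SE 0.34). For rpn-11 the Danube replicate 2 lay at -1.96, the difference without it was 0.37, short of the thresholds, and that within the series was 0.06.

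Genes of energy metabolism had few members past the thresholds. Oxidative phosphorylation had a positive difference in 37 of 50 probes, a median of 0.16 and 0.13 within the series, and 0 members past the thresholds. cox-17, a copper chaperone of cytochrome oxidase, had the lowest p of them and differed by 0.55 (SE 0.27, within the series 0.23). The group's median ratio was -0.073, 0.23, -0.11, 0.49 and -0.052 in Elbe and 0.069, -0.28, 0.0061, 0.12 and -0.059 in Danube, where Elbe replicates 2 and 4 were above the rest and the other Elbe arrays lay among the Danube arrays. Genes of trehalose, glycogen and starch had a median of 0.35 over 11 probes, which came to 0.095 within the series, with 0 past the thresholds. On the arrays their median ratio was -0.049, 0.35, -0.058, 0.37 and 0.041 in Elbe and -0.087, 0.0055, 0.063, 0.12 and -0.0032 in Danube, so that the same Elbe replicates 2 and 4 stood high. Without Danube replicate 2 the median difference was 0.13 for this group and 0.057 for oxidative phosphorylation. aagr-4, an acid alpha-glucosidase relative, differed by 0.75 (SE 0.42) over all arrays and by -0.33 within the series. Of 24 probes for fatty acid metabolism, acdh-6, an acyl-CoA dehydrogenase, was higher by 1.17 (SE 0.55, within the series 0.27) and the median was -0.058. Of 11 probes for the vacuolar ATPase, vha-11 was higher by 0.82 (SE 0.37, within the series 0.23) and the median was 0.14.

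**Figure D3:**
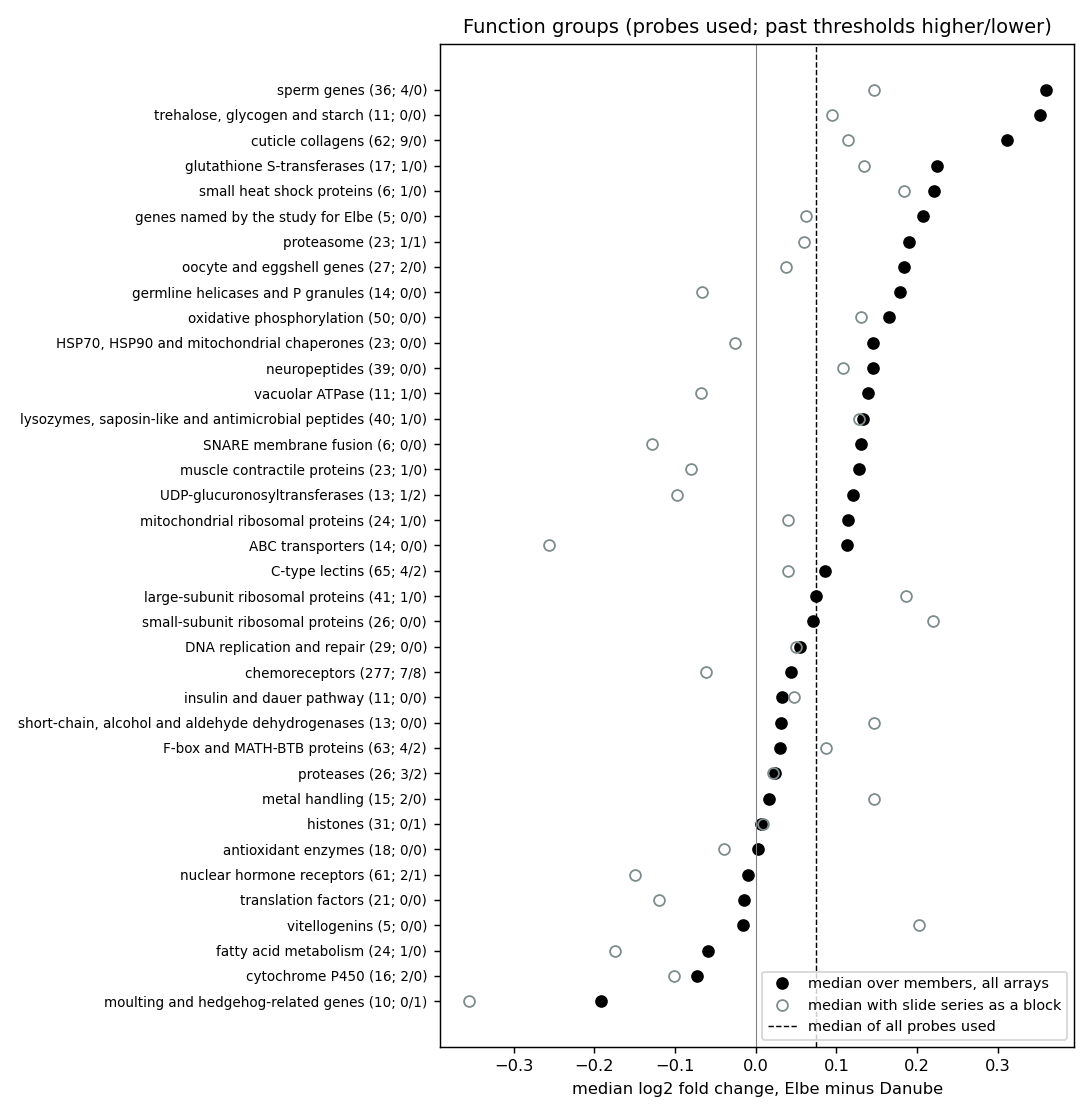
Median log2 difference, Elbe minus Danube (x axis), over the members of 37 function groups. Filled circles are from all arrays, open circles are the within-series values, the dashed line is the median of all probes used (0.075), and brackets give the number of probes used and of members past the thresholds higher/lower; sperm genes (0.36) stand at the top and moulting and hedgehog-related genes (-0.19) at the bottom, and most open circles lie to the left of the filled ones.

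Among genes that handle foreign compounds, members past the thresholds lay on both sides. Of 77 cytochrome P450 genes, 16 probes were used, 2 of them higher, and the median was -0.073. cyp-13A2 had ratios of 0.63, 1.32, 0.53, 1.02 and 0.50 in Elbe and -0.23, -0.26, 0.28, 0.34 and 0.47 in Danube, without overlap but with Elbe replicate 5 and Danube replicate 5 side by side (difference 0.68, SE 0.27, within the series 0.33). cyp-34A2 differed by 1.04 (SE 0.48, within the series 1.07) in the ratios, but by -0.15 in the Cy5 signal alone. Among 17 glutathione S-transferases the median was 0.22, but 0.053 without Danube replicate 2 and -0.039 in the Cy5 signal alone. gst-1 was higher by 0.91 and by 0.80 within the series. Its ratios were 0.52, 0.95, 0.73, 0.78 and 0.84 in Elbe and -0.28, -1.20, 0.83, -0.052 and -0.037 in Danube, where replicate 3 lay among the Elbe arrays. UDP-glucuronosyltransferases had 1 member higher and 2 lower of 13, with ugt-46 at -0.86 (-0.22 within the series), ugt-60 at -0.80 (-0.63) and ugt-66 at 0.70 (0.19). A second ugt-60 probe did not pass the spot filter and differed by -0.31 in the fit over all probes. Short-chain, alcohol and aldehyde dehydrogenases (13 probes, median 0.031, dhs-23 at -0.91 over all arrays and 0.58 within the series) and ABC transporters (14 probes, median 0.11 and -0.26 within the series, wht-9 at -0.45 and -0.35) held no member past the thresholds.

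Metal handling and stress proteins differed in single genes. mtl-1, 1 of the 2 metallothioneins, had ratios of -0.013, -0.037, -0.13, -0.024 and -0.051 in Elbe and -0.51, -0.19, -0.78, -0.68 and -0.59 in Danube. The Elbe arrays were almost equal, the Danube arrays all lay lower, and the difference was 0.50 (SE 0.22, adjusted p = 0.783) and 0.54 within the series. hrg-3, a carrier of heme from the intestine to embryos, had ratios of 0.96, 0.39, 1.14, 1.05 and 0.98 in Elbe and 0.60, -3.42, 0.70, -2.34 and 0.82 in Danube, where replicates 2 and 4 stood far below the rest, and its difference of 1.63 (SE 0.75) came to 0.086 within the series. The hrg-3 spots were better than the lowest grade on 3 of 5 Danube arrays. mtl-1 and hrg-3 were 2 of 15 metal handling probes, whose median was 0.017. The 18 antioxidant probes had differences of -0.40 to 0.41 and a median of 0.0031, and the lowest p belonged to trxr-1, a thioredoxin reductase, at -0.40 (SE 0.27, within the series -0.49). Of 6 small heat shock protein probes, hsp-12.1 was higher, with ratios of 0.63, 0.97, 0.40, -0.09 and 0.82 in Elbe and -0.44, -0.89, -0.23, -0.90 and -0.23 in Danube, no overlap and a difference of 1.08 (SE 0.28, within the series 0.77). HSP70, HSP90 and mitochondrial chaperones had a median of 0.15 over 23 probes with 0 past the thresholds, and hsp-70 differed by 0.67 (SE 0.32) over all arrays and by -0.20 within the series.

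In the groups known from responses to microbes, C-type lectins held 4 higher and 2 lower of 65 probes (6.15% and 3.08%), with a median of 0.086. clec-52 had ratios of 0.26, 0.60, 0.14, 0.27 and 0.78 in Elbe and -0.29, -3.52, -3.70, -1.17 and -0.40 in Danube. Danube replicates 2 and 3 were far below the other arrays, and the difference of 2.23 (SE 0.58) came to 0.81 within the series. The clec-52 spots were better than the lowest grade on 3 of 5 Danube arrays. clec-16 (1.94 over all arrays, 0.24 within the series) overlapped through Danube replicate 5, and clec-83 was lower (-0.85 over all arrays, -0.78 within the series). Of 40 probes for lysozymes, saposin-like proteins and antimicrobial peptides, irg-1, an infection response gene, alone passed the thresholds. Its spots were better than the lowest grade on 3 of 5 Elbe and 3 of 5 Danube arrays. Its ratios were -1.36, 0.22, 0.048, 1.11 and 2.49 in Elbe and -0.33, -5.75, -2.16, -1.34 and -1.37 in Danube, which overlapped and were wide in both groups (difference 2.69, SE 1.04, within the series 1.87). Proteases had 3 higher and 2 lower of 26, with the neprilysins nep-2 at 1.10 (0.57 within the series) and nep-17 at -0.52 (-0.88) and the aspartic protease asp-18 at -1.24 (-0.44). The value of nep-17 was 0.22 in the Cy5 signal alone.

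Signalling and sensory families held members past the thresholds on both sides. Chemoreceptors, of which 277 of 1355 genes were used, had 7 higher (2.53%) and 8 lower (2.89%), with sre-12 at 0.74 (0.76 within the series), srj-8 at -0.84 (-0.56) and srd-39 at -0.87 (-0.98), and a median of 0.044. F-box and MATH-BTB proteins had 4 higher, with fbxa-99 at 1.11 (1.16 within the series) and fbxb-58 at 1.63 (0.11) beside math-26, and 2 lower of 63. The ratios of fbxa-99 were 0.49, 1.24, 0.66, 0.80 and 1.16 in Elbe and -0.29, -0.67, 0.11, -0.083 and -0.29 in Danube, without overlap. Nuclear hormone receptors had 2 higher, nhr-269 (0.69 over all arrays, 0.73 within the series) and nhr-99 (1.10 over all arrays, -0.55 within the series), and nhr-256 lower, of 61. Neuropeptides (39 probes, median 0.15), SNARE membrane fusion genes (6 probes, median 0.13) and the insulin and dauer pathway (11 probes, median 0.033) held none past the thresholds. The members with the lowest p in these 3 groups were nlp-80 at -0.76 (-1.76 within the series), snb-1, a synaptobrevin, at 0.30 (0.099) and ins-18 at -1.22 (-0.66), whose Danube replicate 1 lay far above the other arrays.

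Of 14 genes that the study named for Elbe, 5 passed the spot filter, and 0 of these passed the thresholds. With the within-series difference second, they were abi-1 (0.21 and 0.062), C50B6.7 (0.47 and -0.45), an amylase-like gene, rpa-1 (0.45 and 0.75) of replication protein A, the small heat shock protein gene sip-1 (0.21 and 0.42) and the insulin receptor gene daf-2 (-0.29 and -0.17). The study reported abi-1, rpa-1, sip-1 and an alpha-amylase gene as up-regulated and daf-2 as down-regulated. It named the amylase, the trehalase genes tre-2 and tre-3 and clec-47 for Rhine as well. In the authors' value table, which follows the Cy5 signal without the reference, 3 of the 5 were higher in Elbe past the thresholds, namely rpa-1 (1.44), sip-1 (1.20) and abi-1 (0.89), and the median of the 5 was 0.89, against 0.21 from the ratios. The study chose them on these samples, so their values are not independent of that choice. The other 9 had too few spots above the lowest grade, among them the trehalase genes tre-2 and tre-3 with 0 and 1 of 5 Elbe arrays and 1 and 2 of 5 Danube arrays. In the fit without the spot filter, 2 of these 9 passed the thresholds, tre-3 at -1.58 and bec-1, an autophagy gene with good spots on 1 of 5 Elbe and 0 of 5 Danube arrays, at 1.44.

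The spread between arrays was smaller in Elbe than in Danube for most probes. The SD of the log2 ratio over 5 arrays had a median of 0.43 in Elbe and 0.57 in Danube, and it was smaller in Elbe for 3482 of the 5347 probes (65.1%). Leaving out Danube replicate 2 lowered the Danube median to 0.46 and the share to 53.0%. The SD over 5 Danube arrays also holds any difference between the slide series. Over Danube replicates 1 to 4, all of the same series, the median SD was 0.58. The width of a single array, as the median absolute deviation of its log2 ratios, was 0.39, 0.36, 0.33, 0.41 and 0.32 in Elbe replicates 1 to 5 and 0.31, 0.61, 0.37, 0.46 and 0.28 in Danube replicates 1 to 5. Danube replicate 2 was widest and Danube replicate 5 narrowest, with the Elbe arrays between them. The means of 0.36 ± 0.038 in Elbe and 0.41 ± 0.13 in Danube (SD, n = 5 each) differed by -0.048 (exact two-sided permutation p = 0.516), less than the spread between arrays.

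Function groups differed in how evenly their genes behaved over the exposures. Ribosomal proteins varied little, with a median SD of 0.21 over Elbe and 0.36 over Danube exposures for the large subunit and of 0.22 over Elbe and 0.39 over Danube exposures for the small subunit. Chaperones of the HSP70 and HSP90 type had 0.36 over Elbe and 0.73 over Danube exposures, and their median ratio was -0.86 on Danube replicate 2 but -0.20 to 0.027 on the other Danube arrays. Of 37 groups, 36 had the smaller median SD in Elbe. Small heat shock proteins were the exception, with 0.50 over Elbe and 0.45 over Danube exposures. Among the widest genes, 1 array often stood alone. athp-1 had ratios of 0.42, -0.26, -0.54, 10.18 and -0.16 in Elbe, where replicate 4 stood alone, and T01A4.2 had ratios of 1.12, 1.49, 0.95, -10.19 and 0.057 in Danube, where replicate 4 stood alone on the other side.

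**Figure D4:**
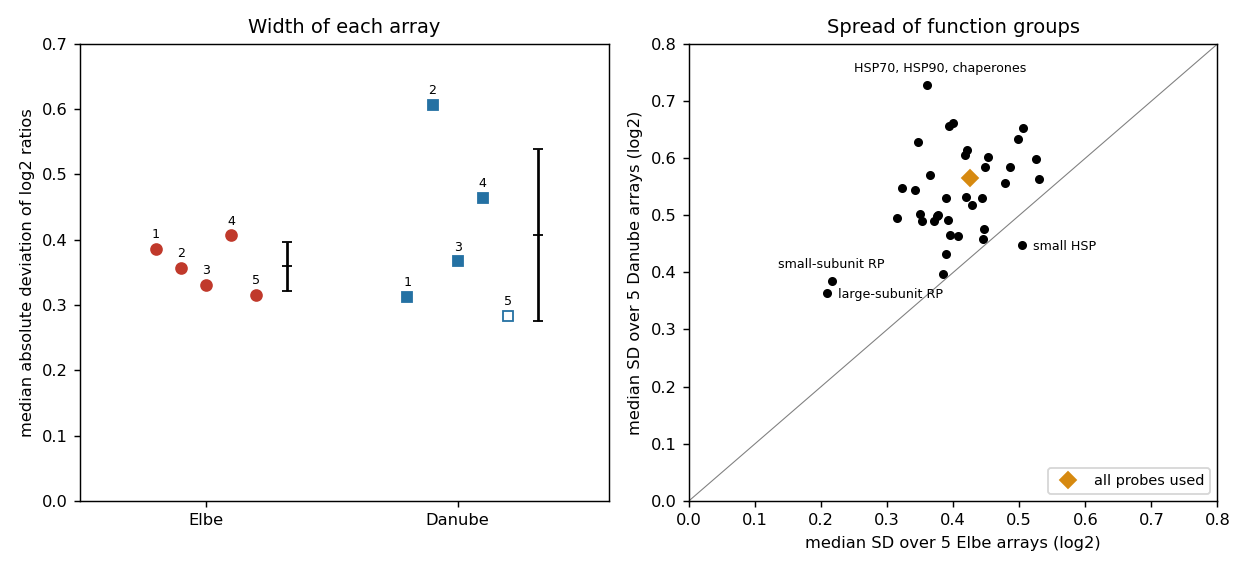
Left, median absolute deviation of the log2 ratios of each array with replicate numbers, bars mean ± SD of 5 arrays; Danube replicate 2 (0.61) is widest and Danube replicate 5 (open, 0.28) narrowest. Right, median SD of each function group with at least 5 probes over the 5 Elbe arrays (x axis) against the 5 Danube arrays (y axis), the diamond marking all probes used; points above the diagonal have the larger spread in Danube.

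Over whole profiles, Elbe arrays were more alike than pairs of an Elbe and a Danube array, while Danube arrays on average were not. Pearson's correlation of log2 ratios over the 5347 probes averaged 0.24 between Elbe arrays (0.15 to 0.34, 10 pairs), 0.15 between Danube arrays (0.084 to 0.19, 10 pairs) and 0.16 between an Elbe and a Danube array (0.070 to 0.27, 25 pairs). Within-sediment minus between-sediment correlation was 0.039, and no other assignment of 5 and 5 arrays gave as high a value (exact one-sided permutation p = 0.00794). Over all 19084 probes it was 0.0031 (exact permutation p = 0.222), and with median centring in place of loess 0.027 (exact permutation p = 0.0635). Leaving out Elbe replicate 2 gave 0.023 (exact permutation p = 0.0714) and leaving out Elbe replicate 4 gave 0.025 (exact permutation p = 0.0556). Danube replicate 5 correlated with Elbe arrays at 0.22 on average (0.14 to 0.27) and with Danube replicates 1 to 4 at 0.16 (0.13 to 0.18).

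To see how far the chosen genes carry over to an array that had no part in choosing them, probes past the thresholds were chosen with 1 array left out, and that array was then placed nearer to the mean of its own or of the other sediment. For the 5 Elbe arrays, 56.6 to 66.4% of the chosen probes lay nearer to Elbe, against 51.6 to 57.8% of all probes. Each Elbe array exceeded its own background in total, and Elbe replicates 1, 3 and 5 did so in both directions. For Elbe replicates 2 and 4, 73.8% and 75.3% of the higher probes lay nearer to Elbe but only 49% and 45.9% of the lower ones, against 57.3% and 57.8% of all probes. For Danube replicates 1 to 4, 44.9 to 51.4% lay nearer to Danube, against 44.8 to 51.1% of all probes, and replicate 3 fell short of its own background. Danube replicate 2 held 66.7% of the higher and 34.8% of the lower probes nearer to Danube. For Danube replicate 5, 140 of 395 chosen probes (35.4%) lay nearer to Danube, against 44.8% of all probes, the remainder being nearer to Elbe. No test was made of these shares. The same array reached the lowest Elbe array or lay above it for 95 of the 232 higher probes. It reached the highest Elbe array or lay below it for 55 of the 104 lower probes. Both counts were higher than for any other Danube array. Over the 232 higher probes the within-series difference had a median of 0.60, against 0.95 over all arrays, and over the 104 lower probes it was -0.47, against -0.90. Within-series values were positive in 221 of the 232 and negative in 94 of the 104, in both of which Danube replicate 5 had helped to choose the probes.

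**Figure D5:**
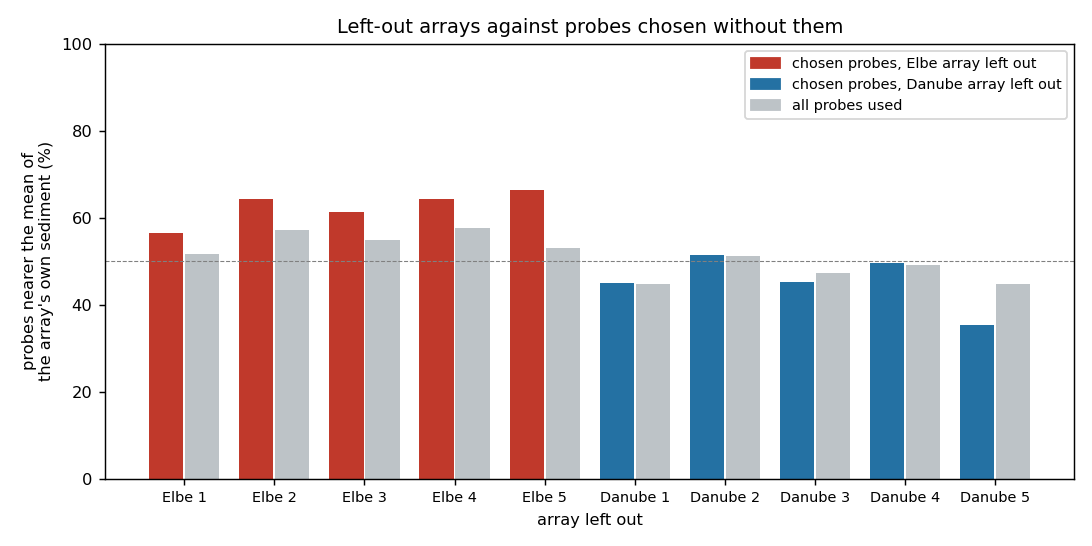
Share of probes (y axis, %) whose value on the array left out lay nearer to the mean of that array's own sediment, for probes past the thresholds without that array (red for Elbe, blue for Danube) and for all 5347 probes (grey). Elbe arrays exceed their grey bars in the total of higher and lower probes, Danube replicates 1 to 4 do not differ much from theirs, and Danube replicate 5 (35.4%) lies below its own (44.8%).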

How the data were processed

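RNA from whole N2 worms was hybridized against a common reference, and the 5 Elbe and 5 Danube arrays were compared. The authors extracted spot intensities with BlueFuse 3.4. The deposited intensity values of Cy5 (sediment sample) and Cy3 (reference) carry no background column, and the deposited confidence of each spot is a fraction, whose lowest grade ends at 0.05. The deposited series value table holds, by the authors' methods, each value as a ratio to chip and gene medians. Of its 18653 rows, 18575 followed the Cy5 signal after print-tip loess and 0 the ratio of Cy5 to Cy3, so it served only as an alternative. Log2 of Cy5 over Cy3 was normalized by print-tip loess in 48 blocks, with control spots at weight 0, and averaged by probe name. Of 19084 probes, 5347 were used, which needed a spot better than the lowest grade in 3 or more of 5 arrays per sediment. limma 3.58.1 (R 4.3.3) was fitted over all 15 arrays, with Benjamini-Hochberg adjustment over the probes used at 0.05. The methods' thresholds were a fold of 1.4 or 0.7 with an unadjusted p under 0.05. Symbols came from RefSeq (assembly WBcel235), which matched 18089 probes. The array number limits the precision.

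Members, gene lists and tests were chosen with earlier results of these data known. Genes named are the 12 with the lowest p in each direction past the thresholds, up to 3 per function list past the thresholds or the 1 with the lowest p, and the genes the study named for Elbe, together 81. A few wide probes were named after their values were seen. The fit was tested on simulated data. Alternatives changed the normalization, spot filter, arrays fitted, weights, blocks and test, or left out each array in turn.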

Additional observations from a re-analysis of the deposited data

Results flagged for a closer look

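In 244 sets of 5 arrays (each named gene, each function group, 3 array signal measures and the width of the arrays, per sediment), an array stood farther from the others than Dixon's critical value of 0.71 allows in 15, and chance gives this in about 1 of 20 sets. Among genes, Elbe replicates were far from their group for R05G6.1 (replicate 2 at 2.40, the others 0.57 to 1.07), sqt-2 (replicate 4 at 1.65), nep-17 (replicate 5 at -0.68), hrg-3 (replicate 2 at 0.39), nas-7 (replicate 1 at -3.61) and wht-9 (replicate 3 at -0.97). Danube replicate 1 was far from its group for xpa-1 at 6.55, ins-18 at 5.90 and trxr-1 at -0.76, and Danube replicate 2 for wago-1 at -4.23. Among medians of function groups, Danube replicate 2 was far below the others for translation factors at -0.58, the vacuolar ATPase at -0.92, HSP70, HSP90 and mitochondrial chaperones at -0.86 and fatty acid metabolism at -0.87. Danube replicate 4 was far above the others for neuropeptides at 0.33.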

How the results depend on the processing

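The adjusted call of F41F3.3 was made at 1 probe. The count was 0 with 1 loess curve per array, without the spot filter, with good spots on 9 of 15 arrays, with Elbe and Danube arrays alone, after blocking on slide series, within the later slide series, in the Cy5 signal alone, with the methods' t-test and in the authors' value table under both tests, 2 with scaling between arrays, and 5 each under array weights and for probes good on all 15 arrays. The higher and lower counts of 232 and 104 were 436 and 373 without the spot filter (19084 probes), 136 and 47 for probes good on all 15 (2213 probes), 46 and 9 with a confidence of at least 0.5 (555 probes), 42 and 53 after blocking on slide series, 60 and 61 within the later slide series, 573 and 542 in the authors' value table (18266 probes) and 634 and 457 with the methods' t-test on it. The higher count was 387 in the Cy5 signal alone, and the lower count 48 with median centring and 184 with array weights. The share of higher among these calls was 69.0%, but 82.0% with median centring, 82.5% in the Cy5 signal alone, 83.6% with a confidence of at least 0.5, 56.5% with array weights, 53.9% without the filter, 44.2% after blocking on slide series, 49.6% within the later series, 51.4% and 58.1% in the value table under both tests and 52.0% without Danube replicate 2.

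Median centring moved the median of all probes to 0.28, and with it those of cuticle collagens to 0.59 and sperm genes to 0.67. Separation of the arrays was 0.027 with median centring and 0.0031 over all probes. Leaving out 1 array gave 0 to 1 adjusted calls, 153 to 274 higher and 73 to 141 lower probes, collagen medians of 0.19 to 0.35, sperm medians of 0.27 to 0.44 and separations of 0.023 to 0.063. Differences in the median Cy5 signal were then 191 to 284, in the median Cy3 signal 19.3 to 111, in the share of lowest grades -4.56 to -2.19 points and in the array width -0.079 to 0.0023. Within the slide series, as with it as a block, npp-27 was at 0.065, ssp-36 at -0.65 and nhr-99 at -0.55, and 5 named genes that had not passed the thresholds also had the other sign there (hsp-70 -0.20, aagr-4 -0.33, xpa-1 0.038, dhs-23 0.58 and C50B6.7 -0.45). In the Cy5 signal alone and in the authors' value table under both tests, nep-17 was at 0.22 and cyp-34A2 at -0.15. The replicate numbers did not pair the arrays (correlations of same-numbered deviations -0.040 to 0.075), and a replicate block gave 1 adjusted call, 226 higher and 111 lower probes. The cause of these changes was not tested.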
